A study of Mus musculus with 2 samples.

Results

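Cyp21a1 encodes the mouse steroid 21-hydroxylase, and the transcript models counted under its name are described here as they were read in the adrenal gland by long-read RNA sequencing. A model is a splice structure built from reads, and every model that carried the gene name was taken, whatever its class. This gave 128 models of 88716 in replicate 1 and 194 models of 85696 in replicate 2, which held 9183 reads of 824225 and 10461 reads of 656826. The glands came from B6CASTF1/J males (the F1 of a B6 and a CAST parent, 2 months old), and the labels name no treatment. The 2 libraries form 1 group. The biosample labels number the animals 3 (replicate 1) and 4 (replicate 2), whereas the library descriptions give 3 for both, so the spread between the libraries may be technical. Every test below therefore compares these libraries and no conditions.

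The 21-hydroxylase is a cytochrome P450 of the endoplasmic reticulum that turns progesterone into deoxycorticosterone, the precursor of corticosterone and aldosterone, with electrons from the reductase Por. The gene lies in the class III region of the major histocompatibility complex, in a stretch that was duplicated together with the complement component C4 genes, and the mouse copy Cyp21a2-ps is annotated as a pseudogene. The annotated gene (ENSMUSG00000024365.9) spans chr17:34801348-34804561 on the minus strand of mm10. Its coding transcript Cyp21a1-201 has 10 exons, 9 introns of 64 to 352 nt, a spliced length of 2058 nt and 487 codons before the stop. GENCODE M21 lists 3 transcripts of the gene, the others being Cyp21a1-202, a transcript with no coding sequence, and Cyp21a1-203, which keeps intron 8.

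Cyp21a1 was among the 3 most read genes in both libraries. It had 11141 CPM in replicate 1 and 15927 CPM in replicate 2 (CPM, the reads scaled to a common library total with spike-ins left out; 13534 ± 3384 CPM, mean ± SD, n = 2), which put it at rank 3 and rank 2. These levels count reads and are not divided by transcript length. Whether each read stands for a separate molecule was not tested. The log2 ratio of replicate 1 over replicate 2 was -0.41 after TMM scaling, with an adjusted p of 6.87e-87 in a two-sided exact binomial test on reads. The ratio was under the 2-fold needed for a call, which 3.41% of the 8063 genes tested reached, while 11.1% passed the adjusted p alone, and 3.55% did so with fewer reads in replicate 1. These shares were not matched for read number, and more reads let smaller ratios pass. With the genes split by length into 10 bins, the 806 genes in the bin of Cyp21a1 (median length 2034 nt) had a median log2 ratio of -0.04. The summed level of 3 fat-cell markers (Adipoq, Fabp4, Ucp1), all read in both libraries, was 3488 CPM in replicate 1 and 1290 CPM in replicate 2, and its part in the Cyp21a1 difference was not tested. All 6 cortex markers used for the check were read in both libraries (53984 and 52397 CPM in sum), as were the 3 zona glomerulosa markers (1725 and 2562 CPM in sum) and the 4 chromaffin markers (7363 and 7854 CPM). The 3 gonad markers summed to 1 and 4 reads, the 3 liver markers to 0 and 2, and the 3 kidney markers to 6 and 6, with Insl3, Ttr, Umod and Slc34a1 at 0 in both.

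Most Cyp21a1 reads followed the coding transcript exactly. Cyp21a1-201 took 8120 reads in replicate 1, or 88.4% (Wilson 95% interval 87.8 to 89.1), and 8795 reads in replicate 2, or 84.1% (83.4 to 84.8). Cyp21a1-202 and Cyp21a1-203 had no reads as complete models in either library, although splice sites that only they carry were used, as given below. The share on the annotated model was higher in replicate 1 by 4.35 percentage points, with an adjusted p of 1.5e-15 in a two-sided Fisher's exact test. That difference was under the 10 points needed for a call, which 0.319% of 5334 genes reached, and 0.469% passed the adjusted p alone. The 0.469% was not matched for read number, and more reads let smaller differences pass. Over all these genes the median annotated share was 84.6% in replicate 1 and 85.0% in replicate 2, and over the 46 genes read 1000 or more times per library it was 90.0% and 90.7%.

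The other reads fell into 4 classes given by TALON, the program that built the models. Incomplete splice matches, which follow part of an annotated intron chain, took 676 reads (7.36%) in replicate 1 and 852 reads (8.14%) in replicate 2. New combinations of known splice sites took 211 reads (2.30%) and 548 reads (5.24%), the class in which the libraries lay farthest apart. The class for models with a splice site absent from the annotation took 176 reads (1.92%) and 203 reads (1.94%). It did not hold every such model. The chain with a new site 25 nt into exon 2 was in this class in replicate 1 (30 reads). In replicate 2 it was among the new combinations (35 reads). Reads with no compatible splice pattern numbered 0 in replicate 1, which allows a share of up to 0.0327%, and 63 (0.602%) in replicate 2. The genes read 1000 or more times per library were ranked by the distance between their shares over the 5 classes in each library and those of Cyp21a1. Of the 45 besides Cyp21a1, the mitochondrial protease gene Lonp1 (4.33 percentage points), the aldosterone synthase gene Cyp11b2 (4.38), Aldoa (5.67), Abcb1b (5.93) and Acly (6.09) were closest.

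**Figure D1:**
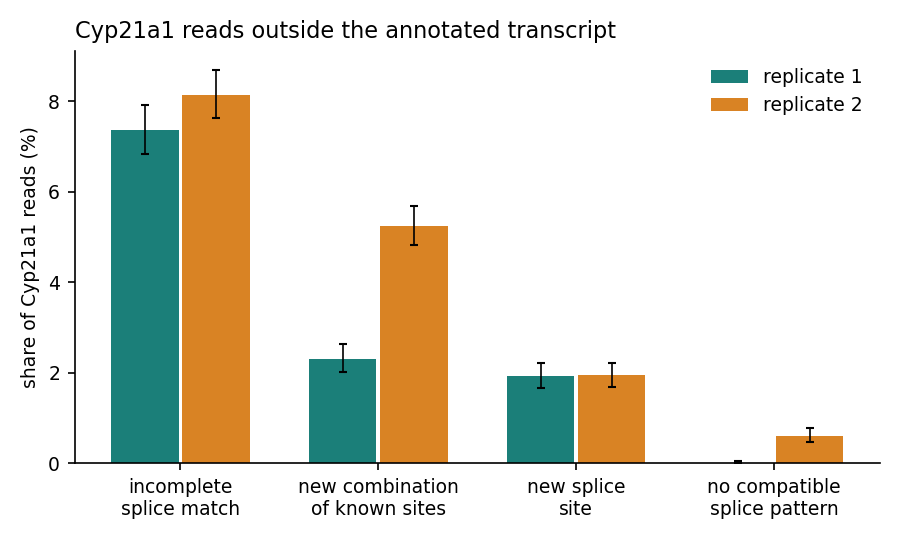
Share of Cyp21a1 reads (%) in the 4 TALON classes other than the annotated transcript, for replicate 1 (left bars) and replicate 2 (right bars), with Wilson 95% intervals as error bars. The class of new combinations of known sites stood at 2.30% and 5.24%, and the class of models with a new splice site at 1.92% and 1.94%. Some chains were put into different classes in the libraries, so a class does not hold the same splice patterns in both.

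The class of a molecule was not always the same in both libraries. Each library has its own table and model annotation, and of 83 intron chains found in both libraries 15 had been put into different classes. The chain that skips exon 2, for example, was an incomplete splice match in replicate 1 and a new combination in replicate 2. The 112 unspliced reads of replicate 1, all inside exon 10, were classed as incomplete splice matches, while the 62 unspliced reads of replicate 2, also inside exon 10, were classed as having no compatible pattern. The molecules are therefore compared below by their introns.

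The spliced models formed 237 intron chains. The 83 chains read in both libraries held 98.2% of the Cyp21a1 reads in replicate 1 and 98.0% in replicate 2. A further 44 chains were read in replicate 1 alone, with at most 3 reads each, and 110 in replicate 2 alone, with at most 7 reads each. Of the models, 65 in replicate 1 and 103 in replicate 2 rested on a single read. All 41 chains with at least 10 reads in sum were read in both libraries. Beside the annotated chain they comprised 16 that began in exon 1 and retained an intron, 2 that retained an intron and began later, 5 that began later and were otherwise as annotated, 2 that skipped an exon and 9 with another acceptor. The remaining 6 spliced exon 10 to a later exon (2), to the copy at Cyp21a2-ps (1) or to itself (1), began upstream of the gene (1), or used another donor in exon 1 (1).

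**Figure D2:**
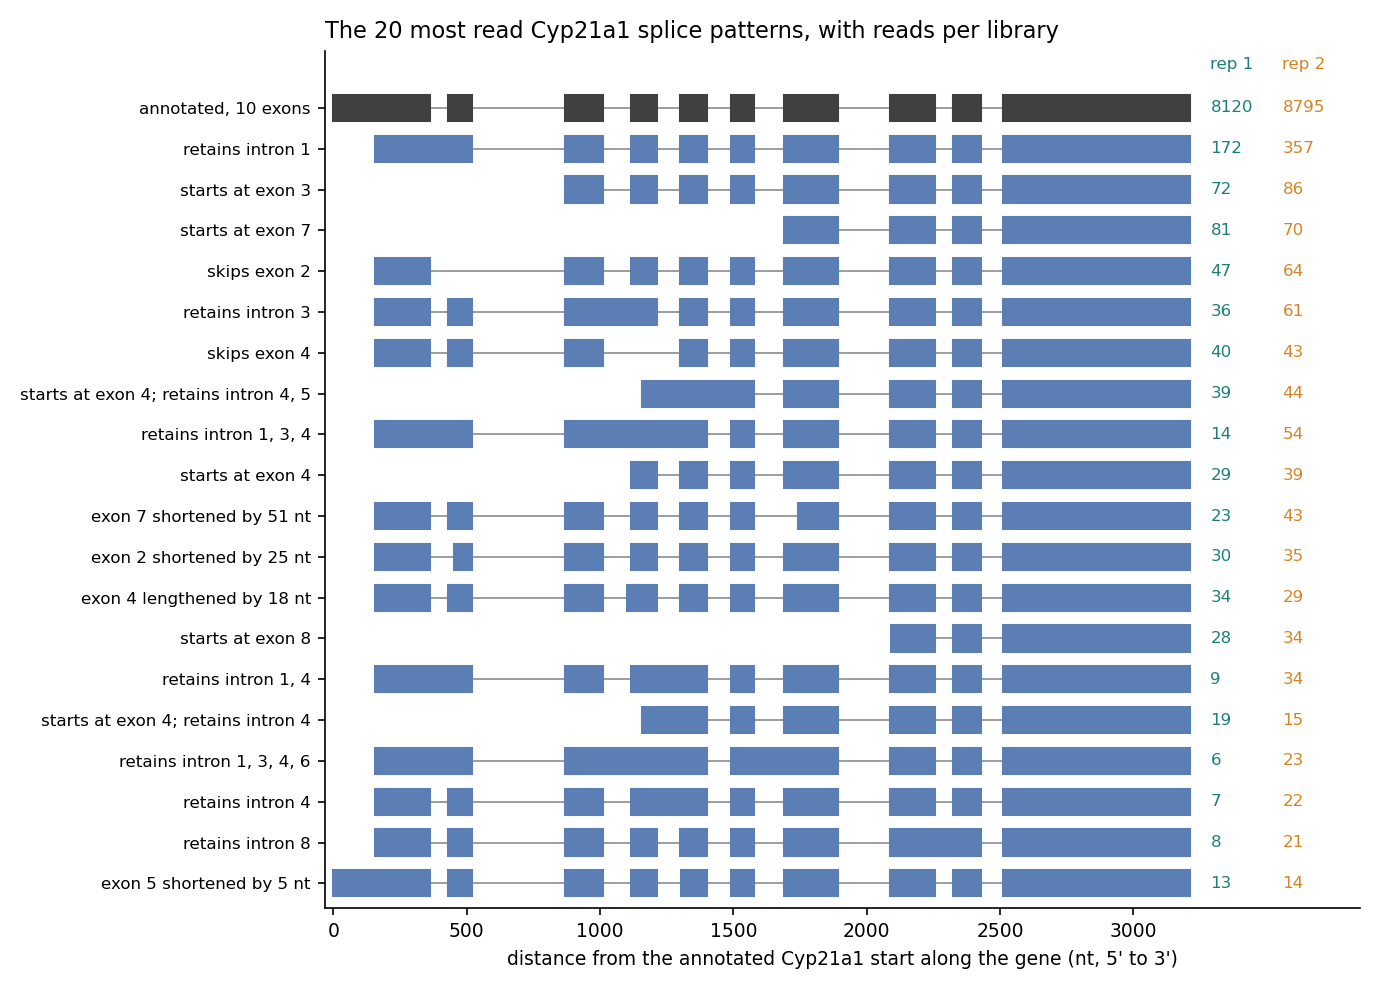
Exons (boxes) and introns (lines) of the 20 most read Cyp21a1 splice patterns, drawn by distance in nt from the annotated start, with the reads in replicate 1 and then in replicate 2 on the right. The annotated pattern (dark boxes) held 8120 and 8795 reads, and the next, which retains intron 1, held 172 and 357; the outer ends of a model are those of the deposited annotation and were not measured for each read.

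Nearly all reads lay on models that hold exon 1. Such models had 8777 reads (95.6%, interval 95.1 to 96.0) in replicate 1 and 10085 reads (96.4%, 96.0 to 96.7) in replicate 2. The shorter models, as drawn, did not begin evenly along the gene. Their first annotated exon was exon 3 for 76 and 88 reads in replicates 1 and 2, exon 4 for 92 and 106 reads, and exon 7 for 82 and 73 reads. Exon 8 was first for 31 and 34 reads and exon 9 for 13 and 12 reads. Chains that were otherwise as annotated held 72 and 86 reads from exon 3, 29 and 39 from exon 4, 81 and 70 from exon 7, 28 and 34 from exon 8, and 12 and 12 from exon 9. No model had exon 2, 5 or 6 as its first exon. The start of each read was not measured, and a read that began in these exons could lie on a model drawn from an earlier one. Unspliced reads inside exon 10 made up 1.22% in replicate 1 and 0.593% in replicate 2.

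As the models were drawn, and with later starts left aside, intron retention was the most frequent change of splicing from the annotated chain. At least 1 annotated intron was kept by 417 reads in replicate 1, or 4.54% (interval 4.13 to 4.99), and by 951 reads in replicate 2, or 9.09% (8.55 to 9.66). Of these, 144 reads (1.57%) and 388 reads (3.71%) kept 2 or more. Retention of each intron was the share of reads on models that run through it. It was taken among reads on models that run through it or splice it at the annotated sites. The start of each read was not measured, so a read that began in the exon after an intron can count as keeping it.

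In the models, intron 1, the shortest at 64 nt, was retained most. It was kept by 263 of 8672 reads in replicate 1 (3.03%, interval 2.69 to 3.41) and by 694 of 9944 reads in replicate 2 (6.98%, 6.49 to 7.50). Over both libraries this is 5.01 ± 2.79% (SD, n = 2), which ranked 8 among the 338 introns of all genes with at least 1000 informative reads in each library. The median of those introns was 0% and 0.0167%, and that of the 125 no longer than 352 nt was 0.0654% and 0.151%. Of the reads that kept intron 1, 172 and 357 lay on the chain otherwise as annotated, whose introns a read begun in exon 2 would share. The other chains that kept intron 1 also lack a junction before exon 2, apart from reads with an exon upstream of the annotated start. Without such an exon, retention of intron 1 and a shortened start cannot be told apart. Intron 4 (86 nt) was kept by 1.60% of reads in replicate 1 and 3.20% in replicate 2, and intron 3 (105 nt) by 1.22% and 2.88%. These 3 led in both libraries, and the intervals of introns 3 and 4 overlapped in each. Among models that begin in exon 1, intron 4 was kept by 0.883% and 2.60% of reads and intron 3 by 1.23% and 2.90%, so that intron 3 then stood above intron 4.

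The other introns stayed under 1.5%. Intron 6 (113 nt) was retained by 0.449% of reads in replicate 1 and 1.45% in replicate 2, intron 8 (68 nt) by 0.498% and 1.20%, intron 7 (196 nt) by 0.311% and 0.882%, and intron 5 (88 nt) by 0.525% and 0.662%. In replicate 1 the intervals of these 4 overlapped one another. A single chain, which starts in exon 4 and keeps introns 4 and 5, held 39 of the 47 reads that kept intron 5 in replicate 1 and 44 of the 68 in replicate 2. Among models that begin in exon 1, intron 5 was kept by 0.0570% and 0.238% of reads, under introns 6, 7 and 8 in both libraries. Intron 2, the longest at 352 nt, was kept by 6 of 8709 reads (0.0689%) and 9 of 9990 reads (0.0901%). Intron 9 (84 nt), the last one, was kept by 0 of 9064 reads, which allows a share of up to 0.0331%, and by 3 of 10389 reads (0.0289%). Length alone did not order the introns, since introns 5 and 9 were about as long as intron 4 and were kept far less often.

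**Figure D3:**
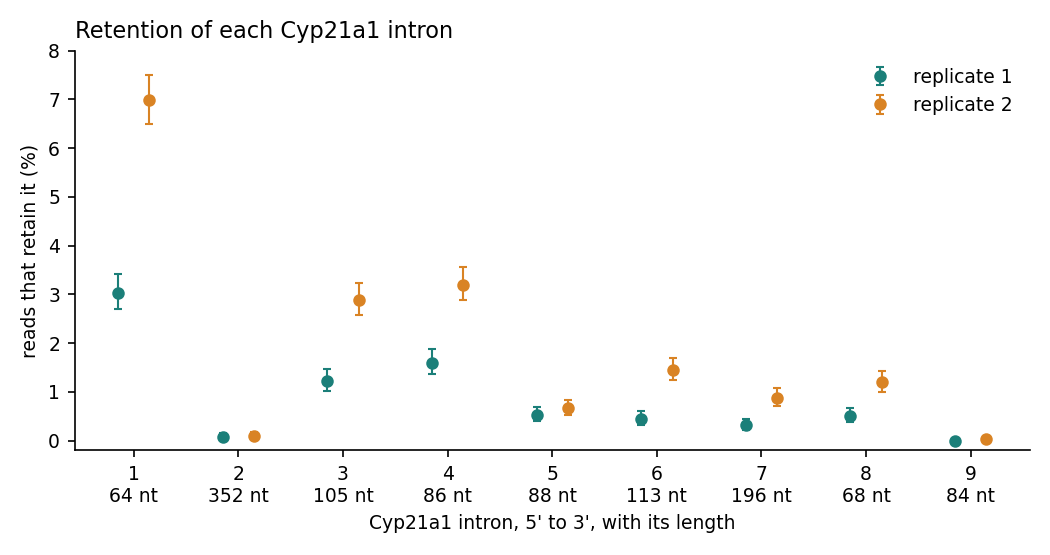
Share of informative reads (%) that retain each Cyp21a1 intron, from 5′ to 3′ with its length in nt, for replicate 1 (left points) and replicate 2 (right points), with Wilson 95% intervals. Intron 1 stood highest at 3.03% and 6.98%, and introns 2 and 9 lay at or near 0 in both libraries.

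All 9 introns were retained by a larger share of reads in replicate 2. The difference passed an adjusted p of 0.05 in a two-sided Fisher's exact test for 6 of the 9 (introns 1, 3, 4, 6, 7 and 8), against 0.246% of the 42347 introns tested. The lowest and highest adjusted p of the 6 were 2.39e-31 for intron 1 and 0.000221 for intron 7. None differed by the 10 percentage points needed for a call, which 0.0543% of all introns reached. Over all introns tested, 14.6% were retained more in replicate 2 and 7.14% more in replicate 1, and mean retention was 0.852% in replicate 1 and 1.14% in replicate 2. These values rest on 8672 to 9064 informative reads per intron in replicate 1 and on 9944 to 10389 in replicate 2. Only 338 introns of all genes had at least 1000 informative reads in each library, and more reads let smaller differences pass. The share past the adjusted p was not taken among introns of similar depth. The 0.246% therefore cannot show whether the 6 introns are unusual for their depth.

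As the models were drawn, retained introns occurred together. Among reads that kept intron 1, 82 of 263 (31.2%, interval 25.9 to 37.0) in replicate 1 and 295 of 694 (42.5%, 38.9 to 46.2) in replicate 2 also kept another intron. Among reads that spliced intron 1, 82 of 8409 (0.975%) and 177 of 9250 (1.91%) kept another. The start of each read was not measured, and a read begun in exon 2 that kept a later intron can count as keeping intron 1. Joint retention with intron 1 therefore cannot be told from a shortened start with a later intron kept. Reads that spliced intron 1 do reach exon 1, so the groups are not alike in this. The chain that kept introns 1, 3 and 4 and spliced the rest had 14 reads in replicate 1 and 54 in replicate 2, and the one that also kept intron 6 had 6 and 23. The chain that kept intron 1 and was otherwise as annotated had 172 and 357. Intron 1 was also kept with intron 4 (9 and 34 reads), intron 6 (4 and 22), intron 3 (5 and 19) or intron 8 (8 and 9), or with the exon 5 acceptor described below (3 and 11). Longer combinations added intron 7 (4 and 7) or intron 8 (3 and 8) to introns 1, 3 and 4, or kept introns 1, 3, 4, 6, 7 and 8 (2 and 11). Where intron 1 was spliced, the chains from exon 1 kept intron 3 (36 and 61), intron 4 (7 and 22), intron 6 (5 and 22), intron 8 (8 and 21) or introns 3 and 4 (6 and 16). A chain from exon 4 kept intron 4 alone (19 and 15). As drawn, no read kept all 9 introns, and the most kept by 1 read was 6 in replicate 1 and 8 in replicate 2.

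The sequence of intron 8 can be shown because Cyp21a1-203 holds it as exon (GENCODE M21 transcripts, mm10, minus strand, chr17:34802225-34802316, intron in capitals, 12 bases of each flanking exon in lower case). It is shown for the stop codon it adds, and it was kept by 45 reads (0.498%) in replicate 1 and 124 reads (1.20%) in replicate 2.
intron 8: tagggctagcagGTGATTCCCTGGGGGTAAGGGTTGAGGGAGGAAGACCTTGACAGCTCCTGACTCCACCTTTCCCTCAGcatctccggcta
Read on in frame from exon 8, the first stop codon is a TGA that begins at base 2 of the intron. The 68 nt of the intron are not a multiple of 3.

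Exon skipping was rare and was concentrated in exons 2 and 4. Exon 2 was skipped by 59 of 8468 informative reads in replicate 1 (0.697%) and by 81 of 9335 in replicate 2 (0.868%). Exon 4 was skipped by 42 of 8682 reads (0.484%) and by 50 of 9754 reads (0.513%). Both exons have lengths that are multiples of 3, 90 nt for exon 2 and 96 nt for exon 4, so skipping them removes 30 and 32 codons and keeps the frame. Exons 5, 6 and 7 also have such lengths, and they were skipped by 0, 0 and 1 reads in replicate 1 and by 3, 3 and 1 reads in replicate 2. Exon 3 was skipped by 2 and 7 reads, exon 8 by 1 and 1, and exon 9 by 1 and 2.

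None of the 8 internal exons passed the test for a difference in inclusion between the libraries, and neither did any of the 37876 exons of all genes that were tested (0% called, Fisher's exact test with Benjamini-Hochberg adjustment). At an unadjusted p under 0.05, 68 of the 37876 differed, and none of the 8. The 2 skipped exons read as follows, 5′ to 3′ from Cyp21a1-201 (chr17:34804044-34804133 and chr17:34803348-34803443, minus strand). The capitals in exon 2 mark the AG that precedes an acceptor used inside the exon.
exon 2: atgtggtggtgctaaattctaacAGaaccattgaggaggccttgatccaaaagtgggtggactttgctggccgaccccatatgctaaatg
exon 4: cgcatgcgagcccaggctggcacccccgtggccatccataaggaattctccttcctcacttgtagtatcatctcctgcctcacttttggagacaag
The pseudogene has an exon of the length of exon 4 but none of the length of exon 2.

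Other acceptors were used by 179 reads (1.95%) in replicate 1 and 278 reads (2.66%) in replicate 2. The most read ones lay inside or just before annotated exons. An acceptor 25 nt into exon 2 was used by 33 and 41 reads, one 51 nt into exon 7 by 24 and 47 reads, and one 18 nt before exon 4 by 36 and 34 reads. Of these 3, the changes of 51 nt (17 codons fewer) and 18 nt are multiples of 3, and the one of 25 nt is not. The sequence of the 18 nt, which lie in intron 3, was not available, so a stop codon among them was not looked for. An acceptor 6 nt into exon 8, which removes 2 codons, was used by 9 reads in replicate 1 and 20 in replicate 2. Sites 5 nt into exon 7 and exon 3, which shift the frame, were used by 7 and 17 reads and by 8 and 9 reads. An acceptor 21 nt before exon 10 was used by 5 and 6 reads, and a donor 281 nt before the end of exon 1 by 5 and 7.

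Splice sites that the annotation gives only to the other Cyp21a1 transcripts were also used. The acceptor 5 nt into exon 5, which belongs to Cyp21a1-203, was used by 19 reads in replicate 1 and 36 in replicate 2. The acceptor 14 nt before exon 2, which belongs to Cyp21a1-202, was used by 7 reads in replicate 1 and 12 in replicate 2. Chains that otherwise followed Cyp21a1-201 held 13 and 14 of the reads with the first of these sites and 6 and 12 of those with the other. Neither change is a multiple of 3.

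The starts of the exons concerned are shown to display the letters at these sites (minus strand, 5′ to 3′, capitals for the AG just before each new acceptor; the first base is the annotated exon start). They lie at chr17:34803667-34803691, chr17:34803237-34803261, chr17:34802806-34802871 and chr17:34802449-34802474.
start of exon 3: gaaAGatggacttggacctgtccct
start of exon 5: gacAGcacgttggtacagacccttc
start of exon 7: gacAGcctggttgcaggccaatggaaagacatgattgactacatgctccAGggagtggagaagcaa
start of exon 8: atccAGaagcgactgcaggaagagtt
The letters AG stood directly before each of these 6 acceptors inside exons (those of exons 2, 3, 5 and 8 and both of exon 7). They stood before 152 of 2056 positions (7.39%) along the whole transcript on its own strand. The aligner is not stated, so whether it placed junctions by such letters could not be checked. The letters, here and at the donors below, are therefore no test of the sites. In the stretch chr17:34804118-34804147, taken from Cyp21a1-202, the capitals are the last 14 bases of intron 1, which reads with the early exon 2 acceptor hold.
end of intron 1: TCCTTTCCCCTCAGatgtggtggtgctaaa

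**Figure D4:**
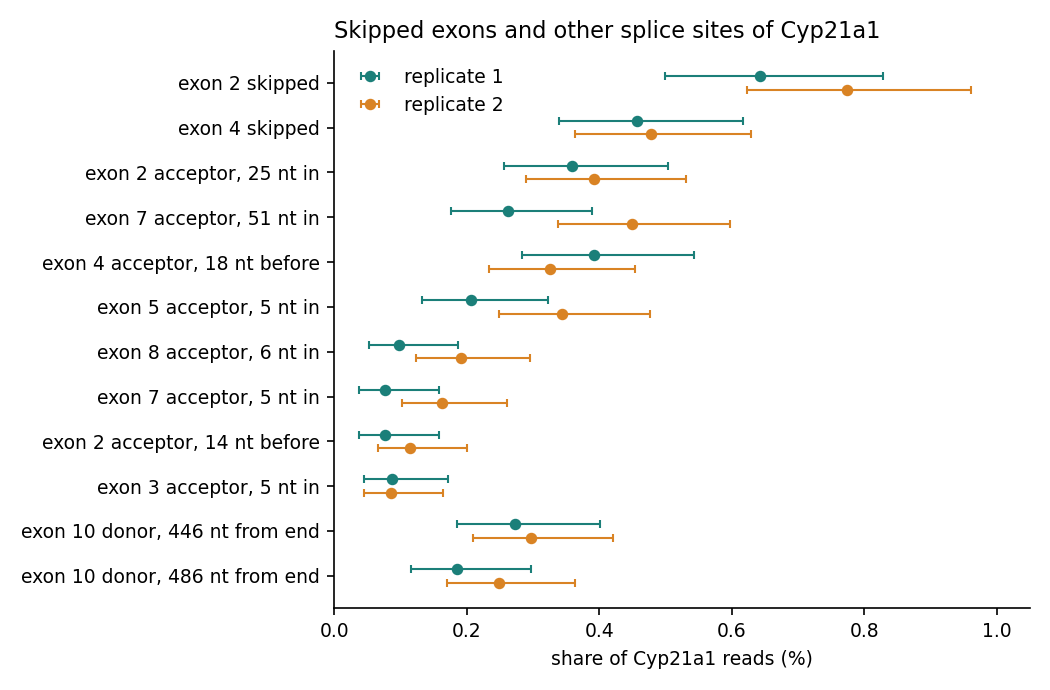
Share of all Cyp21a1 reads (%) with a selection of skipped exons and splice sites outside Cyp21a1-201, for replicate 1 (upper point of each pair) and replicate 2 (lower point), with Wilson 95% intervals. Skipping of exon 2 stood highest with 59 and 81 reads, and the intervals of the libraries overlap in every pair drawn.

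Donors inside the last exon gave rise to molecules that continued past the annotated 3′ end. A donor 486 bases before the transcript end was used by 17 reads in replicate 1 and 26 in replicate 2, and one 446 bases before it by 25 and 31 reads. Both are followed by GT, letters that stand at 88 of 2057 positions (4.28%) of the transcript. They are shown with 15 bases before the cut (chr17:34801821-34801848 and chr17:34801781-34801808, minus strand, GT in capitals).
exon 10 site 1: attcctcctttccagGTgcggctgcagc
exon 10 site 2: cgccccaagaccaggGTgagcgtccttg
The annotated stop codon lies at chr17:34801780-34801782, so a cut at site 1 removes the last 51 coding nt (17 codons) and a cut at site 2 the last 11 coding nt, with the stop codon in both.

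From these donors, 32 reads (0.348%, interval 0.247 to 0.492) in replicate 1 and 42 reads (0.401%, 0.297 to 0.542) in replicate 2 were spliced to exons beyond the annotated end. Site 2 led there in 17 and 23 reads and site 1 in 15 and 19. The acceptor at position 34800869 was the most read, with 9 and 17 reads from site 2 and 10 and 15 from site 1. The acceptor at 34800744 had 4 and 4 reads from site 2 and 2 and 3 from site 1, and that at 34800674 had 3 and 1 from site 2 and 2 and 0 from site 1. These exons lie opposite Tnxa, an unprocessed pseudogene on the plus strand that overlaps the 3′ end of Cyp21a1 and itself had 0 reads in replicate 1 and 1 read in replicate 2. A further 10 and 16 reads spliced out a piece of exon 10 and stayed within the exon. The 2 models of replicate 2 whose last exon was drawn to 34800285 with no further splice held 115 reads. The same chains in replicate 1 were drawn to the annotated end, so this extension is one of the deposited model ends.

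Molecules with an exon upstream of the annotated start were fewer. They numbered 10 reads in 3 models in replicate 1 and 15 reads in 4 models in replicate 2. Their upstream exons began between positions 34804642 and 34805012 and were spliced into exon 1 or, in 2 reads of replicate 2, into a block that also held intron 1. The pattern read in both libraries, with 6 and 8 reads, joined an exon that ends at 34804940 to exon 1 at a position 2 bases inside its annotated start. Another, with 3 and 5 reads, joined an exon that ends at 34804619 to a position 64 bases inside exon 1. The upstream gene C4a, a complement component gene on the same strand that ends 4531 bp away, was not reached by these exons. No model on the opposite strand overlapped the Cyp21a1 span in either library, and no read held a separate exon inside an annotated intron.

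Some models joined Cyp21a1 to its pseudogene copy. Cyp21a2-ps (ENSMUSG00000092471.1) lies at chr17:34719813-34722252 on the same strand, 79096 bp beyond the 3′ end of Cyp21a1, and its read models reached down to 34719224. An exon in that range was attached to Cyp21a1 exons in 14 reads (6 models) in replicate 1 and 10 reads (3 models) in replicate 2. The junction 34801439 to 34719442, inside the last exon of Cyp21a1 and beyond the annotated end of the copy, held 10 and 8 of them. It spans 81996 bases, 38 more than the 81958 bases that separate the matching last exons of the gene and its copy. The other junctions of this kind in replicate 1 spanned 37 to 42 bases more than that offset, with 1 or 2 reads each. In replicate 2, the 2 models that held annotated exons of both genes, with 1 read each, spanned 76 and 100 bases more. A single read of replicate 2 under the pseudogene's name also overlapped Cyp21a1 exons.

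The copies are close in sequence, so reads of one can be placed on the other and these counts are uncertain. The 9 exons of Cyp21a2-ps-201, compared without gaps with exon 1 (its coding part) and exons 3 to 10 of Cyp21a1-201, differed at 45 of 1383 bases (identity 96.7%). Exon 5 of Cyp21a1 was identical over its 102 nt, and exon 10 differed most, at 22 of the 278 bases compared. Exon 8 and its match are shown because the pseudogene carries a stop codon there (chr17:34802305-34802474 and chr17:34720347-34720516, minus strand, capitals for the bases that differ).
Cyp21a1 exon 8: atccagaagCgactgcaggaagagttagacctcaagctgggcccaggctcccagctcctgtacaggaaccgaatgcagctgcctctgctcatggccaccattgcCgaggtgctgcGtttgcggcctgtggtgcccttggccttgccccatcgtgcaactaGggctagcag
Cyp21a2-ps exon 7: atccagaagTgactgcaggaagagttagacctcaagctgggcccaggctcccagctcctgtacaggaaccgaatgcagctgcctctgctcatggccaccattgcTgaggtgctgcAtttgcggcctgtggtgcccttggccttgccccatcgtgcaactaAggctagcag
The differences are C10T, C105T, G116A and G161A, with the base of Cyp21a1 first and positions counted from 1 at the 5′ end of the exon. The first of them turns the codon CGA into TGA in the frame of Cyp21a1.

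Cyp21a2-ps itself was read far less often than Cyp21a1, at ranks 1274 and 414 among all genes. It had 123 reads (149 CPM) in replicate 1 and 220 reads (335 CPM) in replicate 2, or 1.34 and 2.10 reads per 100 reads of Cyp21a1. The mean was 242 ± 131 CPM (SD, n = 2), and the log2 ratio of -1.06 was called, with an adjusted p of 1.43e-09 in the exact binomial test. Reads on its annotated model were 33 of 123 (26.8%, interval 19.8 to 35.3) and 61 of 220 (27.7%, 22.2 to 34.0). In both libraries this share was far under that of Cyp21a1.

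Of the 20 annotated genes that overlap the 100 kb on either side of Cyp21a1, 14 had reads and 10 could be tested. Cyp21a2-ps was the single one called, as 3.41% of all genes were. The median log2 ratio of the 10 was -0.19, against -0.01 over all genes tested. Upstream of Cyp21a1, C4a had 55 reads (66.7 CPM) in replicate 1 and 51 reads (77.6 CPM) in replicate 2, and Stk19 had 37 reads (44.9 CPM) and 22 reads (33.5 CPM). The RNA-processing genes Dxo and Skiv2l had 44 and 43 reads (53.4 and 65.5 CPM) and 92 and 90 reads (112 and 137 CPM). Nelfe, which encodes a subunit of the negative elongation factor, had 49 reads (59.4 CPM) and 37 reads (56.3 CPM). All 5 stayed at or under 137 CPM in both libraries, and none passed the adjusted p in the exact binomial test.

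**Figure D5:**
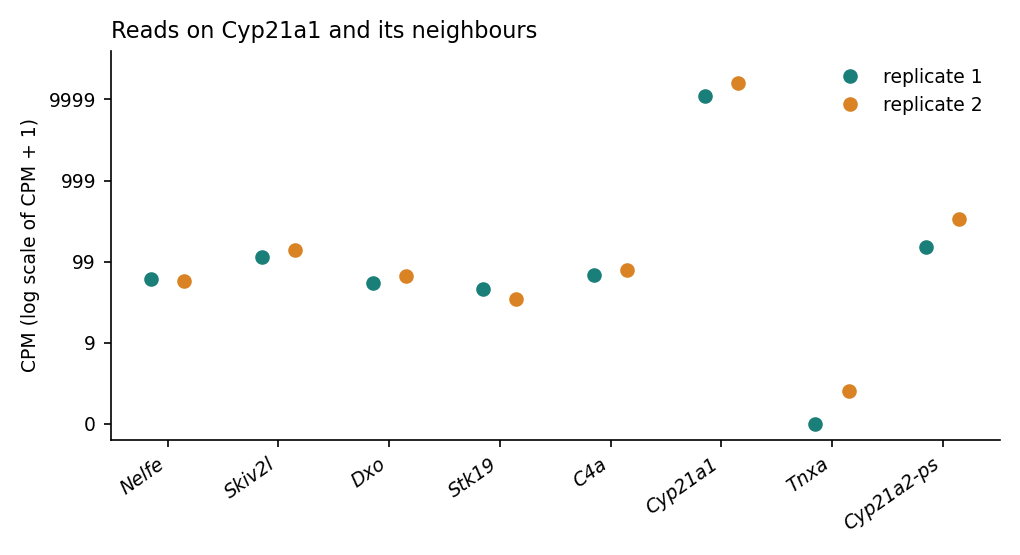
CPM (on a log scale of CPM + 1) of Cyp21a1, its neighbours with reads within 50 kb and Cyp21a2-ps, ordered along the minus strand from 5′ to 3′, for replicate 1 (left points) and replicate 2 (right points). Cyp21a1 stood at 11141 and 15927 CPM, and Cyp21a2-ps at 149 and 335 CPM.

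The genes that supply Cyp21a1 with substrate and electrons, or use its product, were read beside it. Of the 25 genes of the steroid pathway list, which includes Cyp21a1, 24 had reads and 22 were tested. Only 1 of the 22 was called, against 3.41% of all genes. This was Hsd11b1, which encodes the enzyme that regenerates active glucocorticoid. It had 118 reads in replicate 1 and 41 in replicate 2 (log2 ratio 1.28, adjusted p = 5.66e-06, exact binomial test). Without the fold limit, 13 of the 22 passed the exact binomial test at an adjusted p of 0.05, against 11.1% of all genes. Of the 13, 5 were higher in replicate 1 (7.53% of all genes) and 8 lower (3.55%). These shares of all genes were not matched for read number, and the 3 most read genes of both libraries are on the list. Hsd3b1 passed at a log2 ratio of 0.11 with 6305 and 4990 reads. Nr0b1 did not pass at -1.16 with 9 and 18 reads. The contrast with all genes therefore cannot show whether the list is unusual for its depth. The median log2 ratio of the list was -0.16. With scaling by the library total, 12 passed, 2 higher and 10 lower in replicate 1, and without the length trend 11 passed, 2 higher and 9 lower.

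The 6 most read members were the enzymes and carriers of corticosterone synthesis and Srd5a2. Cyp11a1, whose product opens steroid synthesis, had 26354 CPM in replicate 1 and 19885 CPM in replicate 2 (23120 ± 4575, SD, n = 2). Star, which moves cholesterol into the mitochondrion, had 12009 CPM and 14672 CPM (13340 ± 1883). Hsd3b1, whose enzyme makes the progesterone that Cyp21a1 uses, had 7650 CPM and 7597 CPM (7623 ± 37.1). Cyp11b1, whose enzyme acts on the product of Cyp21a1, had 7550 CPM and 9656 CPM (8603 ± 1489), and the steroid 5α-reductase gene Srd5a2 had 4513 CPM and 5594 CPM (5053 ± 764). The ranks of Cyp21a1 and Star were exchanged between the libraries, at 3 and 2 for Cyp21a1 and at 2 and 3 for Star. Cyp17a1, whose enzyme would compete for progesterone, had 0 reads in replicate 1 and 3 in replicate 2, at or under the 3 reads that a count of 0 allows. Hsd11b2 had no reads in either library.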

How the data were processed

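Long-read RNA sequencing of adrenal glands gave 2 libraries in 1 group. The deposited values are raw counts, the number of reads the authors' processing gave to each model. Per the deposited notes, reads were placed on mm10 and annotated against GENCODE M21, and per the file headers the models were written by TALON; the aligner and its version are not stated there. Exon coordinates came from the deposited annotation of each library. Model ends are those of the annotation, not of each read, and each library had its own models, so chains were matched by introns.

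Reads on spike-ins (5731, 0.691%, in replicate 1 and 5156, 0.779%, in replicate 2) were left out, which left 824225 and 656826. A count of 0 allows 3 reads, or 3.64 and 4.57 CPM. Intervals (Wilson, 95%) and floors cover counting error only. Log2 ratios are replicate 1 over replicate 2 on CPM scaled by TMM (edgeR 4.0.16, R 4.3.3) plus 1 CPM. The quasi-likelihood test of edgeR could not be fitted to 1 group without residual degrees of freedom, so each gene with 20 or more reads in sum was given a two-sided exact binomial test. Shares of reads, introns and exons with at least 20 informative reads in each library were given two-sided Fisher's exact tests. All p-values were adjusted by Benjamini-Hochberg over every feature tested, with calls at 0.05 and 2-fold or 10 percentage points. Alternatives were the scaling (library total, DESeq2 1.42.0), the read classes, spike-ins, the read minimum, models with at least 2 reads, the intron cover, each library alone and, added after seeing the data, removal of the length trend and models that begin in exon 1.

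Named were every chain with at least 10 reads in sum, every join to another gene, every intron and internal exon, the 6 pathway genes of highest mean CPM, neighbours within 50 kb, Cyp21a2-ps and the 5 genes closest in class shares. Features with fewer reads were chosen after their values were seen. The gene and the lists were chosen with earlier results of these data known. Sequences are GENCODE M21 transcripts. Python 3.11.15, numpy 2.4.6, scipy 1.17.1, pandas 2.3.3 and matplotlib 3.10.9 were used.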

Additional observations from a re-analysis of the deposited data

How the results depend on the processing

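The log2 ratio of Cyp21a1 (-0.41) ranged from -0.52 with scaling by the library total to -0.34 with annotated models only, under 2-fold and past the adjusted p in all 7 alternatives tried; without the length trend, an alternative added after seeing the data, it was -0.37. That alternative called 131 genes over the whole table in place of 275. The difference in annotated share was 4.35 percentage points, 3.84 without reads of no compatible pattern and 4.14 with models of at least 2 reads. The number of introns past the adjusted p was 6 under every alternative. The difference of intron 2 changed sign with models of at least 2 reads (0.0173 against -0.0212 percentage points), and it passed no test; the cause was not tested. With the library total, 2 neighbouring genes passed the adjusted p in place of 1. Without replicate 1 or replicate 2, the Cyp21a1 level was 11141 to 15927 CPM and the annotated share 84.1 to 88.4%, as single libraries with no test. Of 124 values recomputed for 42 results, 117 were labelled as unchanged. That label was fixed in advance for each library alone, which always lies within the SD of the mean of 2 libraries. It was also set without a comparison for exon inclusion, and counts could change somewhat and keep it. The number 117 is therefore no measure of how many directions and threshold sides held. Without the length trend, the log2 ratios of Nelfe (-0.11 against 0.18) and Skiv2l (0.0206 against -0.19) changed sign, with no adjusted p under 0.05 in either case; the cause was not tested. Star then no longer passed the adjusted p, and Hsd3b1 did not pass it without the length trend or with the library total. No paired analysis was possible because the libraries form 1 group.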
